A study of Homo sapiens with 8 samples.

Results

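The ephrins, semaphorins, plexins and other axon guidance genes are the ligands and receptors by which cells repel or attract their neighbours, and 50 of them were followed here in human breast cancer cells. They were taken by symbol from a table of counts per Ensembl gene, and all 50 were found among its 60646 genes: 8 ephrins, 18 semaphorins, 8 plexins, 2 neuropilins, 2 netrins, 5 netrin receptors, 3 SLITs and 4 ROBOs. The samples were 4 libraries labelled DOT1L knockout (DOT1L/+ KO) and 4 wild-type libraries of MDA-MB-231, an established triple-negative breast cancer line with mesenchymal features, with no drug treatment named for either group. The knockout was made with a guide RNA against the first exon of DOT1L, the methyltransferase of histone H3 lysine 79. The labels do not give the edit, the number of alleles hit, whether the cells are 1 clone, or whether the replicates were separate cultures, so the spread behind each p-value is that among these libraries and may be purely technical. The comparison asks how the transcripts of these genes differed in level between the genotypes.

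Ephrins are cell-surface ligands of the EPH receptor tyrosine kinases; A-type ephrins are held by a lipid anchor, B-type ephrins cross the membrane and signal backwards through their own tails. Semaphorins signal through plexins, which act on small GTPases and the cytoskeleton, and most of the secreted class 3 semaphorins need neuropilins as co-receptors. Netrins act through DCC, NEO1 and the UNC5 receptors, and SLIT proteins repel cells through ROBO receptors. Outside the nervous system the same proteins steer vessel growth, epithelial shape and the migration of tumour cells.

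Of the 50 genes, 46 passed the filter on low counts and were tested, and 4 (EFNB3, SEMA4A, DCC and UNC5C) did not. Between the knockout and the wild-type, 31 of the 46 changed at an adjusted p below 0.05 (67.4%), against 47.6% of all 19877 genes tested. Of these 31 genes, 16 were higher in the knockout, where 23.9% of all tested genes were, and 15 were lower, where 23.6% were. With upper-quartile scaling 18 were higher and 12 lower, and with library totals 18 and 11. Changes of at least 2-fold were 5 rises (SEMA5A, UNC5A, SLIT1, SLIT3 and ROBO2) and 1 fall (SEMA3B), against 6.72% and 2.64% of all genes. Of the 5 rises, UNC5A, SLIT1 and SLIT3 met the filter (10 counts at the median library size in at least 4 libraries) through the knockout libraries and not through the wild-type libraries, so that a low-count gene of this kind could be called higher but hardly lower. Knockout and wild-type levels did not overlap for 26 of the 46 (56.5%), against 43.4% of all genes. The median log2 change of the 46 was 0.11, against 0.00 over all genes. No test of the set was made, and the genes were counted with earlier results of these data known. Each adjusted p below comes from edgeR's quasi-likelihood test with Benjamini-Hochberg adjustment over all genes tested. The main fit had group as its single term and left out the pairing of samples by replicate number. With the replicate number as a block, 35 of the 46 were called, the same 31 among them, against 10472 of all 19877 genes. In bulk RNA a change in every cell cannot be told apart from a change in the number of cells that express a gene.

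**Figure D1:**
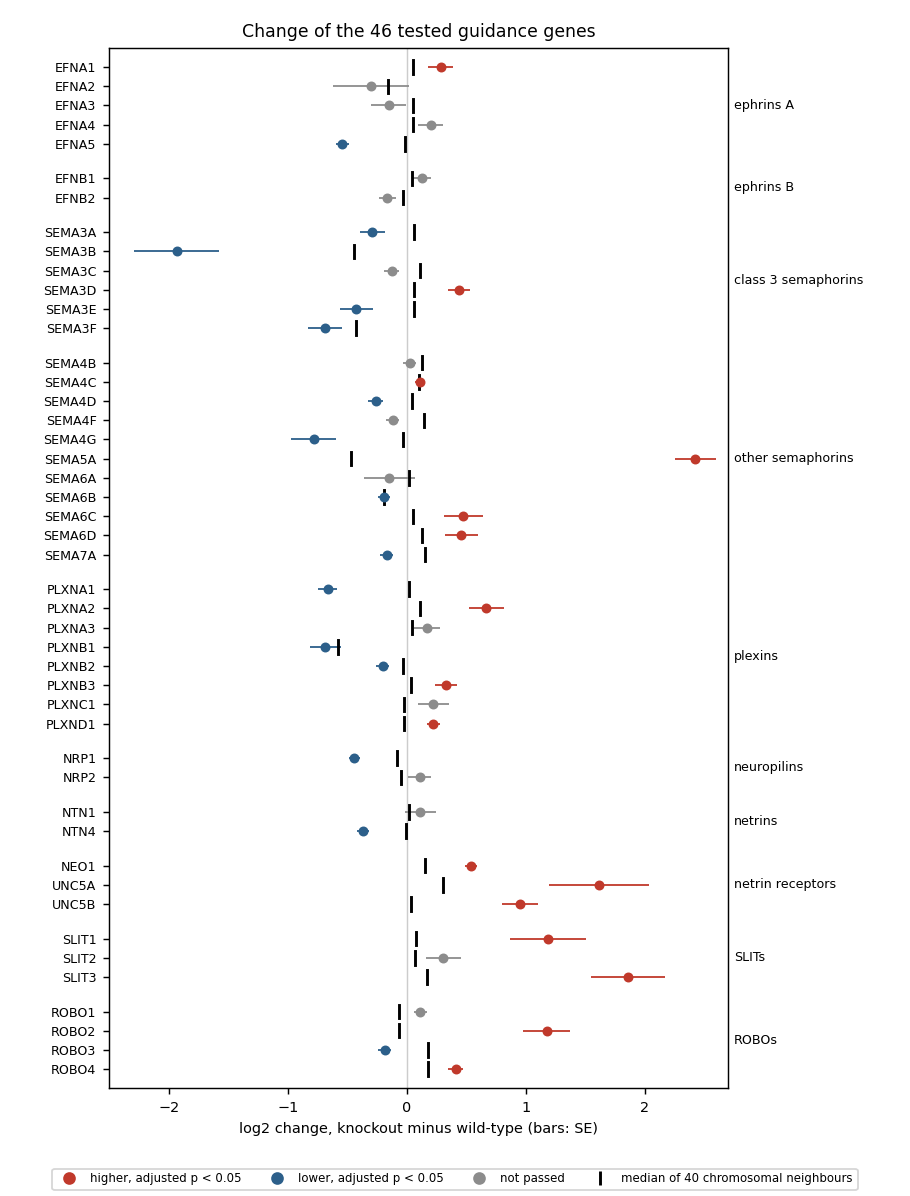
Log2 change of each of the 46 tested genes, knockout minus wild-type, by family (points, with SE as bars). Black ticks give the median change of the 40 tested genes nearest on the chromosome, 20 on each side (fewer at a chromosome end). SEMA5A stands farthest right at 2.43 and SEMA3B farthest left at -1.93.

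Total counts ran from 40103408 to 50031412 per library, so that 1 count was worth 0.0198 to 0.0250 CPM (counts per 1000000 of the scaled library). DOT1L itself had 85.3, 78.1, 83.2 and 92.3 CPM in knockout replicates 1, 2, 3 and 5, against 115, 101, 103 and 118 CPM in the same-numbered wild-type replicates. The knockout mean was 84.7 ± 5.91 CPM and the wild-type mean 109 ± 8.52 CPM (SD, n = 4 each, log2 change -0.37, SE 0.06, adjusted p = 2.83e-05), and since the edit is not given, a count over the whole gene is only a partial check of the label. The markers of the line were present, with VIM, CD44, KRT18, KRT8, FOSL1 and AXL summing to 6470 to 6990 CPM in knockout and 5580 to 6340 CPM in wild-type libraries. ESR1, PGR, ERBB3 and CDH1, which are low in this line, together summed to 3.35 to 4.67 CPM in knockout and 2.96 to 4.58 CPM in wild-type libraries, mostly ERBB3. Within that sum ESR1 was called higher, at 0.538 ± 0.252 CPM in the knockout and 0.262 ± 0.131 CPM in the wild-type (adjusted p = 0.0333), with overlapping groups. It met the filter through the knockout libraries and not through the wild-type libraries. CDH1 had 41 counts over the knockout and 1 over the wild-type libraries, and PGR had 18 and 5. Of 6 neuronal markers, RBFOX3, SYT1 and MAP2 rose with log2 changes of 2.17, 0.94 and 0.53 (adjusted p = 7.25e-06, 0.000145 and 0.0106), and the 6 summed to 8.47 to 10.7 CPM in knockout and 3.60 to 4.98 CPM in wild-type libraries. The other 3, SNAP25, STMN2 and NEFL, averaged 0.0516, 0.0153 and 0.0102 CPM in the knockout, under the 0.0595 to 0.0632 CPM that 3 counts stand for in those libraries. The 5 endothelial markers summed to 1.94 to 2.55 and 1.01 to 2.15 CPM in knockout and wild-type libraries, with VWF called higher (log2 change 1.96) and PECAM1 and CDH5 not passed. VWF, like ESR1, met the filter through the knockout libraries alone. The 5 leukocyte markers summed to 0.523 to 1.01 and 0.0634 to 0.472 CPM and the 5 fibroblast markers, led by COL1A1, to 24.0 to 29.5 and 10.8 to 19.5 CPM in knockout and wild-type libraries. Wild-type replicate 3 stood apart from its group at several of these genes. Without it 17 guidance genes were higher and 13 lower.

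The families differed widely in level. Per kilobase of exon (RPKM), SEMA7A, a lipid-anchored semaphorin that binds integrins and plexin C1, was the most abundant of the 50 genes, at 37.4 ± 0.50 RPKM in the knockout and 42.1 ± 3.85 RPKM in the wild-type (SD, n = 4 each). PLXNB2, a receptor of class 4 semaphorins, came next with 30.2 ± 2.03 RPKM in the knockout and 34.8 ± 2.10 RPKM in the wild-type. Within each genotype the samples of SEMA7A all lay above those of PLXNB2. Below them, NRP1, SEMA6B, SEMA3C, NEO1, NTN4, PLXNA1, PLXND1, ROBO4, PLXNA2 and EFNA5 had means over all 8 samples of 14.96 down to 10.3 RPKM, and the order among them differed between the groups. At the other end, 8 genes lay under 0.1 RPKM, among them SLIT1, SLIT3, UNC5A and the 4 that were not tested. Of the 11 called genes at or above 10 RPKM, 4 were higher and 7 lower.

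**Figure D2:**
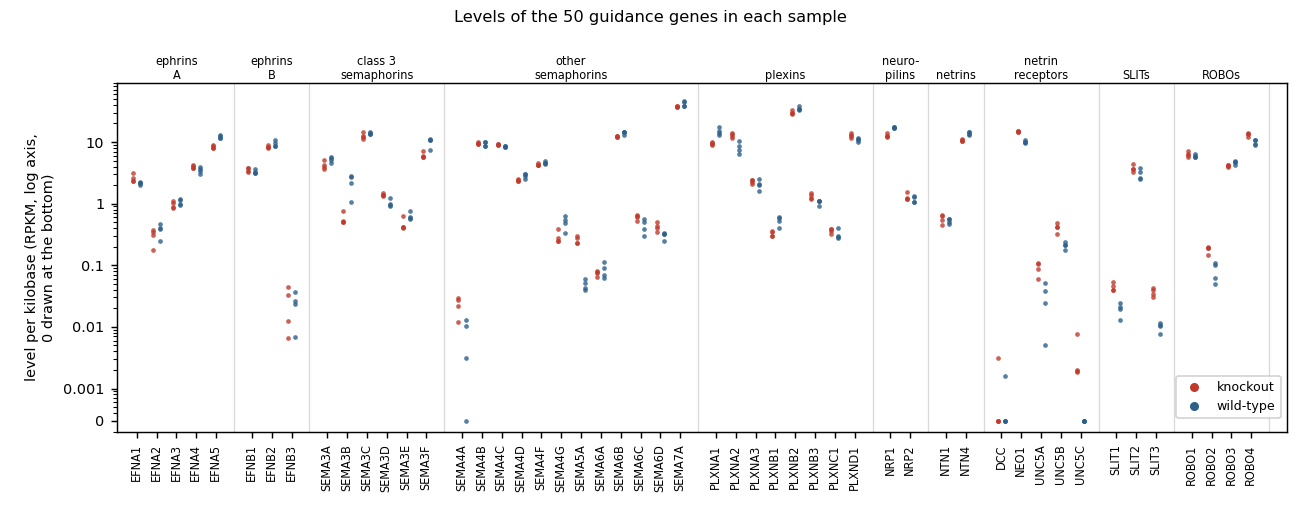
Level of each of the 50 genes in each sample, in RPKM on a log axis, with knockout samples left of wild-type samples for each gene and a level of 0 drawn at the bottom. SEMA7A and PLXNB2 top the plot, and DCC and UNC5C lie at or near 0 in every library.

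Promoter sequences are shown for 5 semaphorin genes because the study concerns MYC and Mondo factors on chromatin, and both bind the E-box motif CACGTG. The windows run from 250 bases before to 50 bases after the first listed transcript start (RefSeq, GRCh38.p14), and 43 of the 50 genes had one. The motif, a palindrome that reads alike on both strands, was found in 3 of the 43 windows (6.98%), against 7.43% of 27305 windows of all genes. Those 3 are SEMA3E and SEMA4D, which fell, and SEMA6D, which rose. The motif begins at base -45 relative to the start in SEMA3E, at base -50 in SEMA4D and at base -28 in SEMA6D. The windows of SEMA5A and SEMA3B, the largest rise and the largest fall, do not hold these letters. They contain 39 and 15 CpG dinucleotides, against a median of 14 over all windows and 22 over the 43. The windows lie at chr5:9546026-9546325, minus strand (SEMA5A), chr3:50272869-50273168, plus strand (SEMA3B), chr7:83649090-83649389, minus strand (SEMA3E), chr9:89495607-89495906, minus strand (SEMA4D) and chr15:47183839-47184138, plus strand (SEMA6D). Those of SEMA3B and SEMA4D lie inside the genes as GENCODE 29 bounds them, and other starts are not shown. Capitals mark CACGTG.
SEMA5A: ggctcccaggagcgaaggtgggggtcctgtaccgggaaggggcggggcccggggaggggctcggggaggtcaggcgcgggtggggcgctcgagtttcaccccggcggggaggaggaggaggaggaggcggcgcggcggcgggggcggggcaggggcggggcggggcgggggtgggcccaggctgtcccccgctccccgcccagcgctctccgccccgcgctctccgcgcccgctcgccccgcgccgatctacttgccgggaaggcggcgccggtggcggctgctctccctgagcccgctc
SEMA3B: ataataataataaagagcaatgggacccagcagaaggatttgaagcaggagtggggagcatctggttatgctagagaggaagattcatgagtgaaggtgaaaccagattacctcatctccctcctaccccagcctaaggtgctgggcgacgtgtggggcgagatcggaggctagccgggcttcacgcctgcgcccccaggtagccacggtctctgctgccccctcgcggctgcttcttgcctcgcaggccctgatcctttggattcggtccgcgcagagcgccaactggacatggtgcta
SEMA3E: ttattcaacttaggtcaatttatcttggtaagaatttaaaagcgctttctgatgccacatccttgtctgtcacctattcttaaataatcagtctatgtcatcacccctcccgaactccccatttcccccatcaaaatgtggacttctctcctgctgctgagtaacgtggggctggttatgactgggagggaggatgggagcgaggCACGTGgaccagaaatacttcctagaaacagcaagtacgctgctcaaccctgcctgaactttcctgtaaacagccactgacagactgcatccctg
SEMA4D: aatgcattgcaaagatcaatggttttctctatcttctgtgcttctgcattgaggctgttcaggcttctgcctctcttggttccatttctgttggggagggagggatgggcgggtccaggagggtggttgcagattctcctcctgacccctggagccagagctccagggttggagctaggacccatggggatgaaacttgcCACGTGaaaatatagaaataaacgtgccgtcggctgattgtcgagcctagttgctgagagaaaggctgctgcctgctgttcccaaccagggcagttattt
SEMA6D: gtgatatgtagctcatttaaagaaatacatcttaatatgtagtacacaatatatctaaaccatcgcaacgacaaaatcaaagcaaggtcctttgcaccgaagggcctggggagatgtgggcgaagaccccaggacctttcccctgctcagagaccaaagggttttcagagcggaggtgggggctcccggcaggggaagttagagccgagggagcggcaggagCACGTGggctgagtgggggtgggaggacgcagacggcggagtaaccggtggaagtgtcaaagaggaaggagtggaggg

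Among the 7 ephrins tested there was 1 rise and 1 fall, and the other 5 did not pass. EFNA5, the most abundant A-type ephrin and a ligand of several EPHA receptors (ENSG00000184349, chr5:107376889-107670895, minus strand, coordinates here and below from GENCODE 29 on GRCh38), stood at 45.4, 45.4, 50.8 and 49.6 CPM in knockout replicates 1, 2, 3 and 5, against 67.3, 66.8, 70.3 and 73.8 CPM in wild-type replicates 1, 2, 3 and 5. Every knockout library lay below every wild-type library, with means of 47.8 ± 2.79 CPM in the knockout and 69.5 ± 3.22 CPM in the wild-type (log2 change -0.54, SE 0.05, adjusted p = 2.13e-08). EFNA1, a ligand of EPHA2, rose to 6.66 ± 0.938 CPM in the knockout, against 5.47 ± 0.238 CPM in the wild-type (log2 change 0.29, SE 0.10, adjusted p = 0.0289). That rise did not pass without knockout replicate 1 (log2 change 0.19, adjusted p = 0.147) or 2 (adjusted p = 0.0632), or without wild-type replicate 1, 3 or 5 (adjusted p = 0.0564, 0.0527 and 0.0521). EFNA5 made up 51.6 ± 3.24% of the A-type ephrin transcripts per kilobase in the knockout and 63.3 ± 2.30% in the wild-type (SD, n = 4 each), and those shares did not overlap.

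None of the other ephrins passed. EFNB2, a B-type ephrin that marks arteries (ENSG00000125266, chr13:106489731-106535662, minus strand), had 40.2, 41.2, 41.05 and 45.6 CPM in the knockout replicates, against 42.5, 43.2, 48.1 and 54.1 CPM in the wild-type replicates. The groups overlapped, since knockout replicate 5 exceeded wild-type replicates 1 and 2, and the change did not pass (mean 42.02 ± 2.43 CPM in the knockout and 46.98 ± 5.36 CPM in the wild-type, log2 change -0.16, SE 0.07, adjusted p = 0.0616). With the replicate number as a block it did (log2 change -0.16, adjusted p = 0.00547), as it did with no filter (adjusted p = 0.00898), without knockout replicate 5 (adjusted p = 0.0218) and without wild-type replicate 1 (0.0196) or 2 (0.0266). EFNA4 had a log2 change of 0.20, adjusted p = 0.126, and passed with upper-quartile scaling (adjusted p = 0.0464). The values of EFNA3, EFNB1 and EFNA2 were -0.15, 0.13 and -0.30 on the log2 scale, with adjusted p of 0.431, 0.219 and 0.466. EFNA3 and EFNA4 share 44.7% and 15.0% of their exon bases with AL691442.1 on the same strand, which had 0 counts. How shared reads were counted is not given, so both values are uncertain. EFNB1, X-linked and expressed at sharp tissue borders, passed without wild-type replicate 3 (0.0486). EFNB3 had 15 counts over the knockout libraries and 13 over the wild-type libraries, a ratio of 1.04 (95% counting interval 0.462 to 2.37).

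The secreted class 3 semaphorins included 1 rise and 4 falls among 6 genes, all of them tested. SEMA3B (ENSG00000012171, chr3:50267558-50277546, plus strand), a repellent ligand lost from a region of the short arm of chromosome 3 in many carcinomas, had 4.43, 3.03, 2.90 and 2.88 CPM in the knockout replicates, against 15.9, 16.3, 6.09 and 12.5 CPM in the wild-type replicates. All knockout libraries were lower, and wild-type replicate 3 lay closer to them than the other wild-type libraries did. The means were 3.31 ± 0.749 CPM in the knockout and 12.7 ± 4.72 CPM in the wild-type (SD, n = 4 each), a 3.82-fold lower level in the knockout (log2 change -1.93, SE 0.36, adjusted p = 0.00398). SEMA3F, its neighbour in the same region and a ligand of neuropilin-2, averaged 29.8 ± 3.52 CPM in the knockout and 48.1 ± 8.14 CPM in the wild-type (log2 change -0.69, SE 0.14, adjusted p = 0.00427). The 40 tested genes nearest to SEMA3B and SEMA3F had median log2 changes of -0.45 and -0.43, with 29 and 28 of them lower. Relative to those medians SEMA3B stood at -1.49 and SEMA3F at -0.26. The part of this shared regional fall in the values was not tested.

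The other 4 class 3 genes lie together on chromosome 7, where the neighbour medians were 0.06 to 0.11. SEMA3C, a ligand known for steering cardiac neural crest cells and the most abundant of the class (ENSG00000075223, chr7:80742538-80922359, minus strand), had 70.5, 79.6, 76.4 and 90.7 CPM in the knockout replicates, against 84.3, 85.9, 86.1 and 90.1 CPM in the wild-type replicates. Knockout replicates 1, 2 and 3 were below the wild-type range and replicate 5 was above it, and the change did not pass (mean 79.3 ± 8.50 CPM in the knockout and 86.6 ± 2.48 CPM in the wild-type, log2 change -0.13, SE 0.06, adjusted p = 0.0919). It passed with the replicate block (adjusted p = 0.0127), with no filter (0.0268) and without knockout replicate 5 (log2 change -0.20, adjusted p = 0.00320). SEMA3D, a repellent of endothelial cells (ENSG00000153993, chr7:84995553-85186855, minus strand), stood at 10.7, 12.04, 11.01 and 11.3 CPM in the knockout replicates and 7.57, 7.44, 10.1 and 8.04 CPM in the wild-type replicates. The groups did not overlap, although wild-type replicate 3 came close to the knockout (mean 11.3 ± 0.563 CPM in the knockout and 8.28 ± 1.23 CPM in the wild-type, log2 change 0.44, SE 0.09, adjusted p = 0.000442). SEMA3A, the prototype collapsing factor of growth cones, and SEMA3E, the ligand of plexin D1, fell with log2 changes of -0.29 and -0.42 (adjusted p = 0.0448 and 0.0160), and the groups overlapped for both.

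The 2 falls on chromosome 7 were near the threshold. SEMA3A no longer passed when libraries were scaled by upper quartiles (adjusted p = 0.103) or by totals (0.0895), or without knockout replicate 1, 2 or 3 (0.0831, 0.0882 and 0.102) or wild-type replicate 2, 3 or 5 (0.0996, 0.143 and 0.0920). The SEMA3E call was lost without knockout replicate 1 or 2 (adjusted p = 0.0541 and 0.0559) or wild-type replicate 3 (0.0634). Within a sample, where library scaling cancels, SEMA3D was 0.367, 0.352, 0.341 and 0.272 times SEMA3A per kilobase in knockout replicates 1, 2, 3 and 5, against 0.206, 0.168, 0.222 and 0.194 times in the wild-type replicates. These ratios did not overlap. This pair, like the other within-sample ratios below, was chosen after its values were seen.

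The membrane-bound semaphorins were divided, with 4 rises, 4 falls and 3 genes not passed among 11 tested. SEMA5A, a transmembrane semaphorin with thrombospondin repeats that signals through plexin B3 (ENSG00000112902, chr5:9035026-9546075, minus strand), had 2.80, 2.80, 3.66 and 3.41 CPM in the knockout replicates, against 0.614, 0.526, 0.486 and 0.719 CPM in the wild-type replicates. The lowest knockout library was well above the highest wild-type library. The level was 5.38-fold higher in the knockout, at 3.17 ± 0.437 CPM against 0.586 ± 0.103 CPM in the wild-type (SD, n = 4 each, log2 change 2.43, SE 0.17, adjusted p = 2.49e-10). Its chromosomal neighbours went the other way, with a median log2 change of -0.47 and 24 of 40 lower, so that SEMA5A stood at 2.90 relative to them. It made up 0.340 ± 0.0462% of the transcripts of its family per kilobase in the knockout and 0.0586 ± 0.0114% in the wild-type.

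SEMA7A (ENSG00000138623, chr15:74409289-74433958, minus strand), which alone made up 48.7 ± 0.422% of that family in the knockout and 50.7 ± 3.09% in the wild-type, had 144, 139.7, 142 and 144 CPM in the knockout replicates, against 172, 146, 174 and 148 CPM in the wild-type replicates. The knockout libraries were tightly grouped, below wild-type replicates 1 and 3 by a wide gap and below 2 and 5 by a small gap (mean 142 ± 1.90 CPM in the knockout and 159.9 ± 14.6 CPM in the wild-type, log2 change -0.17, SE 0.05, adjusted p = 0.0148). SEMA7A no longer passed when libraries were scaled by upper quartiles (log2 change -0.10, adjusted p = 0.113) or by totals (adjusted p = 0.0853), or without wild-type replicate 1 (0.0662). SEMA4D, which acts on plexin B1 and on immune cells as CD100, fell (log2 change -0.26, adjusted p = 0.00104), as did SEMA4G (log2 change -0.78, adjusted p = 0.00185). SEMA4G shares 22.3% of its exon bases with MRPL43 on the opposite strand, which had 19432 counts in all against 749 for SEMA4G, so the SEMA4G value is uncertain. SEMA6B fell (log2 change -0.19, adjusted p = 0.00352), its neighbours had a median of -0.19, and it did not pass when scaled by library totals (adjusted p = 0.0599).

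SEMA6C, SEMA6D and SEMA4C rose. SEMA6D, a ligand of plexin A1, averaged 3.62 ± 0.574 CPM in the knockout and 2.63 ± 0.348 CPM in the wild-type (log2 change 0.46, SE 0.14, adjusted p = 0.00961), a call lost without knockout replicate 2 (adjusted p = 0.0565). SEMA6C had a log2 change of 0.48, adjusted p = 0.0206, lost without knockout replicate 2 (0.0530) or wild-type replicate 3 or 5 (0.0608 and 0.0581). SEMA4C, a ligand of plexin B2, rose with a log2 change of 0.11, adjusted p = 0.0484, close to the threshold. It did not pass with DESeq2 (adjusted p = 0.0823), RLE size factors (0.0517) or no filter (0.177). Leaving out wild-type replicate 3 kept the call, and leaving out any other library ended it, with adjusted p of 0.112, 0.111, 0.0572 and 0.0650 without knockout replicate 1, 2, 3 or 5 and 0.0886, 0.145 and 0.0603 without wild-type replicate 1, 2 or 5. SEMA4B, SEMA4F and SEMA6A had log2 changes of 0.02, -0.12 and -0.15 and did not pass. SEMA6A shares exon bases with SEMA6A-AS1 on the opposite strand, which had 553 counts against 319. SEMA4A was not tested, with 30 counts over the knockout and 8 over the wild-type libraries, a ratio of 3.38 (95% counting interval 1.51 to 8.53). With no filter it was called higher (adjusted p = 0.036).

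**Figure D3:**
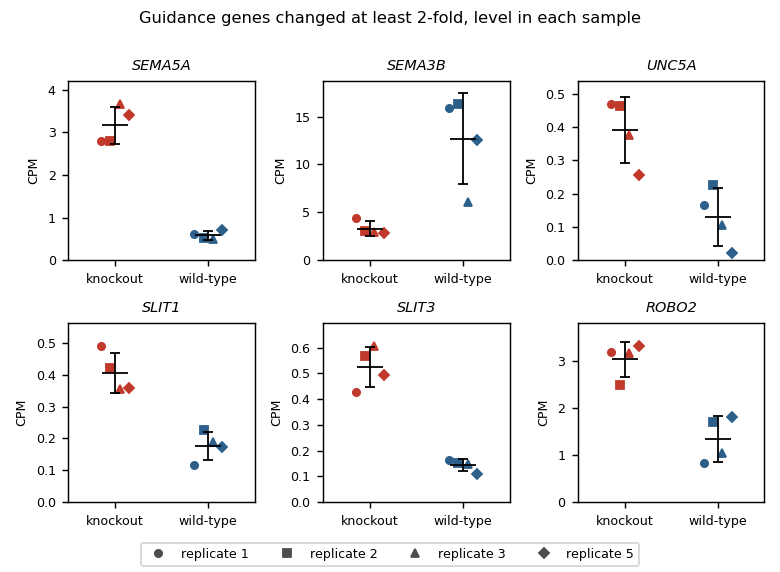
Level in CPM of the 6 genes that changed at least 2-fold, with knockout samples left and wild-type samples right, marker shapes for replicate numbers, and mean ± SD in black. SEMA3B is the lone fall, with wild-type replicate 3 at 6.09 CPM, and no gene shown has overlapping groups.

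Plexins, the semaphorin receptors, split evenly, with 3 rises, 3 falls and 2 not passed among 8. PLXNA1, which pairs with neuropilin-1 (ENSG00000114554, chr3:126988594-127037392, plus strand), had 104, 100.1, 97.7 and 109 CPM in the knockout replicates, against 164, 154, 140.3 and 193 CPM in the wild-type replicates. The knockout libraries were all lower and less spread (mean 103 ± 5.09 CPM in the knockout and 163 ± 22.2 CPM in the wild-type, log2 change -0.66, SE 0.08, adjusted p = 1.58e-05). PLXNA2, its close relative that also serves class 6 semaphorins, went the opposite way, with 191, 174, 188 and 161 CPM in the knockout replicates against 117, 102, 141 and 88.2 CPM in the wild-type replicates. All knockout libraries lay above all wild-type libraries (mean 178 ± 13.8 CPM in the knockout and 112 ± 22.7 CPM in the wild-type, log2 change 0.67, SE 0.15, adjusted p = 0.00736). PLXNA2 was 1.46, 1.38, 1.53 and 1.17 times PLXNA1 per kilobase in knockout replicates 1, 2, 3 and 5, against 0.569, 0.528, 0.799 and 0.364 times in the wild-type replicates, so the more abundant of the pair was PLXNA2 in every knockout library and PLXNA1 in every wild-type library. The neighbours of the 2 genes had median log2 changes of 0.11 (PLXNA2) and 0.02 (PLXNA1).

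PLXNB2 (ENSG00000196576, chr22:50274979-50307627, minus strand), the receptor of SEMA4C and the dominant plexin, had 239, 217, 218 and 203 CPM in the knockout replicates, against 275, 247, 241 and 246 CPM in the wild-type replicates. The groups were separated by a narrow gap (mean 219 ± 14.8 CPM in the knockout and 252 ± 15.2 CPM in the wild-type, log2 change -0.20, SE 0.05, adjusted p = 0.00399), and its share of plexin transcripts per kilobase was 43.4 ± 0.730% in the knockout and 47.8 ± 1.27% in the wild-type (SD, n = 4 each). PLXNB1, the receptor of SEMA4D, averaged 3.19 ± 0.338 CPM in the knockout and 5.14 ± 0.894 CPM in the wild-type (log2 change -0.68, SE 0.13, adjusted p = 0.000173). It lies on the short arm of chromosome 3 among genes with a median log2 change of -0.58, 36 of 40 of them lower, and stood at -0.10 relative to them. PLXND1, the vascular receptor of SEMA3E, rose (log2 change 0.22, adjusted p = 0.00239), and so did PLXNB3, the receptor of SEMA5A (log2 change 0.33, adjusted p = 0.00495). PLXNA3 and the SEMA7A receptor PLXNC1 had log2 changes of 0.17 and 0.23 and did not pass, though PLXNA3 passed without wild-type replicate 5 (adjusted p = 0.00936) and with no filter (0.0440), and PLXNC1 without wild-type replicate 2 (0.0375). PLXNB3 shares 20.4% of its exon bases with SRPK3 on the same strand, which had 25 counts in all.

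Of the neuropilins, NRP1, the co-receptor of SEMA3A and of VEGF (ENSG00000099250, chr10:33177492-33336262, minus strand), had 140.5, 142, 144 and 159 CPM in the knockout replicates, against 194, 202, 202 and 195 CPM in the wild-type replicates. The gap between the groups was wider than the spread within either (mean 146 ± 8.51 CPM in the knockout and 198 ± 4.17 CPM in the wild-type, log2 change -0.44, SE 0.05, adjusted p = 1.24e-07). NRP2, the co-receptor of SEMA3F, averaged 17.8 ± 2.43 CPM in the knockout and 16.5 ± 1.94 CPM in the wild-type and did not pass (log2 change 0.11, adjusted p = 0.384). NRP1 held 90.9 ± 0.62% of neuropilin transcripts per kilobase in the knockout and 93.5 ± 0.725% in the wild-type.

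The ligand NTN4 was lower and the receptors NEO1 and UNC5B were higher. NTN4, a laminin-like netrin of basement membranes and the main netrin here (ENSG00000074527, chr12:95657807-95791152, minus strand), had 45.2, 46.5, 43.04 and 42.5 CPM in the knockout replicates, against 60.3, 59.8, 53.3 and 55.5 CPM in the wild-type replicates. The knockout libraries were all lower (mean 44.3 ± 1.85 CPM in the knockout and 57.2 ± 3.39 CPM in the wild-type, log2 change -0.37, SE 0.05, adjusted p = 5.32e-06). NTN1, the classical attractant and survival ligand, had a log2 change of 0.11, adjusted p = 0.504, and its level per kilobase was 0.568 ± 0.0929 RPKM in the knockout and 0.525 ± 0.0502 RPKM in the wild-type. NEO1 and UNC5B rose, as did UNC5A, which passed the filter through the knockout libraries. NEO1, a receptor of netrins and of RGM proteins (ENSG00000067141, chr15:73051710-73305206, plus strand), had 116, 125, 124 and 116 CPM in the knockout replicates, against 82.3, 88.2, 81.9 and 78.5 CPM in the wild-type replicates. The groups did not overlap (mean 120.2 ± 4.74 CPM in the knockout and 82.7 ± 4.04 CPM in the wild-type, log2 change 0.54, SE 0.05, adjusted p = 6.34e-09), and the neighbours of NEO1 had a median of 0.15.

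UNC5B, a repulsive netrin receptor that can trigger cell death when no ligand is bound, averaged 2.82 ± 0.433 CPM in the knockout and 1.45 ± 0.177 CPM in the wild-type (log2 change 0.95, SE 0.15, adjusted p = 2.45e-05). UNC5A, its neuronal relative (ENSG00000113763, chr5:176810477-176880898, plus strand), had 0.469, 0.463, 0.376 and 0.258 CPM in the knockout replicates, against 0.165, 0.225, 0.106 and 0.0218 CPM in the wild-type replicates. These rest on 76 counts over the knockout and 22 over the wild-type libraries, and the groups did not overlap (mean 0.392 ± 0.0989 CPM in the knockout and 0.130 ± 0.0869 CPM in the wild-type, log2 change 1.61, SE 0.42, adjusted p = 0.00323). Of the 40 genes nearest to UNC5A 29 were higher, with a median of 0.31. DCC, the main netrin receptor of neurons, had 2 and 1 counts over the knockout and wild-type libraries and UNC5C had 7 and 0, too few to test.

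**Figure D4:**
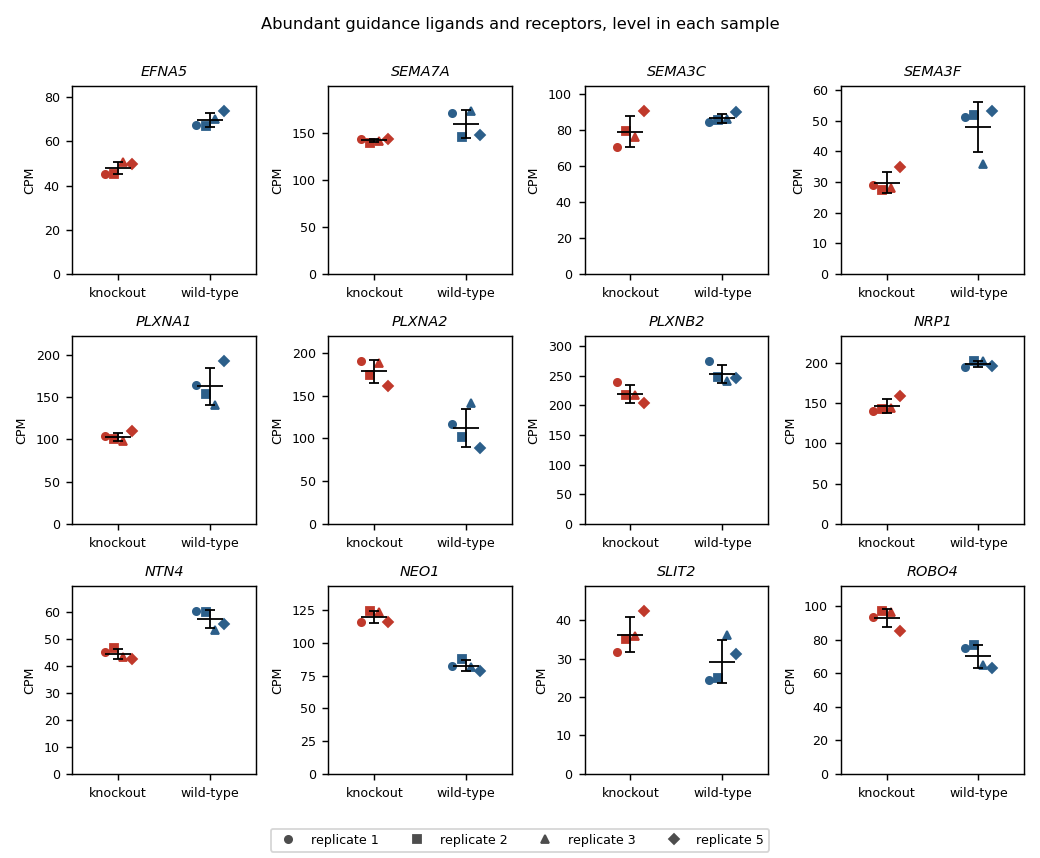
Level in CPM of 12 ligands and receptors picked for display, with knockout samples left and wild-type samples right, marker shapes for replicate numbers, and mean ± SD in black. They are not the 12 highest per kilobase, since SEMA3F and SLIT2 are shown and SEMA6B and PLXND1 are left out. PLXNA1 and PLXNA2 move in opposite directions, and SEMA3C and SLIT2 show overlapping groups in which replicate 5 is high in the knockout.

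SLIT1 and SLIT3, which passed the filter through the knockout libraries, were called higher, ROBO2 and ROBO4 rose, and ROBO3 fell. SLIT2, the main SLIT of these cells and a repellent ligand (ENSG00000145147, chr4:20253260-20620561, plus strand), had 31.8, 35.03, 35.9 and 42.4 CPM in the knockout replicates, against 24.4, 25.0, 36.2 and 31.3 CPM in the wild-type replicates. The groups overlapped, wild-type replicate 3 being higher than 3 of the 4 knockout libraries (mean 36.3 ± 4.47 CPM in the knockout and 29.2 ± 5.62 CPM in the wild-type, log2 change 0.31, SE 0.15, adjusted p = 0.124). SLIT2 passed with the replicate block (log2 change 0.32, adjusted p = 0.00130), with library totals (0.0368) and without wild-type replicate 3 (log2 change 0.43, adjusted p = 0.0128). SLIT3 (ENSG00000184347, chr5:168661733-169301129, minus strand) had 0.429, 0.569, 0.606 and 0.496 CPM in the knockout replicates, against 0.165, 0.150, 0.148 and 0.109 CPM in the wild-type replicates. All knockout libraries were higher (mean 0.525 ± 0.0788 CPM in the knockout and 0.143 ± 0.0240 CPM in the wild-type, log2 change 1.86, SE 0.31, adjusted p = 4.13e-05), on 102 and 25 counts in the knockout and wild-type groups. SLIT1 (ENSG00000187122, chr10:96998038-97185920, minus strand) had 0.490, 0.421, 0.355 and 0.357 CPM in the knockout replicates, against 0.118, 0.225, 0.190 and 0.174 CPM in the wild-type replicates, again with no overlap (mean 0.406 ± 0.0639 CPM in the knockout and 0.177 ± 0.0448 CPM in the wild-type, log2 change 1.19, SE 0.32, adjusted p = 0.00420), on 79 and 31 counts. SLIT1 shares 2.37% of its exon bases with ARHGAP19-SLIT1 on the same strand, which had 38 counts in all, against 110 for SLIT1. How shared reads were counted is not given, so the SLIT1 value is uncertain. SLIT2 kept 97.8 ± 0.361% of SLIT transcripts per kilobase in the knockout and 99.01 ± 0.248% in the wild-type.

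ROBO4, known as the ROBO of endothelium, was the most abundant ROBO gene of these cells per kilobase (ENSG00000154133, chr11:124883691-124898500, minus strand), with 93.3, 97.2, 96.3 and 85.1 CPM in the knockout replicates, against 74.9, 76.8, 65.1 and 63.1 CPM in the wild-type replicates. The knockout libraries were all higher (mean 92.98 ± 5.51 CPM in the knockout and 69.97 ± 6.88 CPM in the wild-type, log2 change 0.41, SE 0.06, adjusted p = 2.56e-05). Of the 5 endothelial markers, VWF was called higher, at 0.718 ± 0.0965 CPM in the knockout and 0.182 ± 0.0569 CPM in the wild-type (log2 change 1.96, SE 0.29, adjusted p = 8.28e-06). VWF met the filter through the knockout libraries and not through the wild-type libraries, and 31 of its 40 neighbours were higher, with a median of 0.46. TEK had 46 counts over the knockout and 9 over the wild-type libraries, and CLDN5 had 2 and 2. PECAM1 and CDH5 averaged 0.592 ± 0.0986 and 0.606 ± 0.122 CPM in the knockout and 0.563 ± 0.291 and 0.737 ± 0.150 CPM in the wild-type and did not pass. The part of these markers in the ROBO4 value was not tested. ROBO3, which lies beside ROBO4 on the opposite strand, fell (log2 change -0.19, adjusted p = 0.00989), but not past the threshold when libraries were scaled by upper quartiles (0.0888) or totals (0.101). The neighbours had median log2 changes of 0.18 (ROBO4) and 0.18 (ROBO3), and ROBO4 was 3.09, 3.23, 3.42 and 3.07 times ROBO3 per kilobase in knockout replicates 1, 2, 3 and 5, against 2.19, 2.27, 2.15 and 1.88 times in the wild-type replicates.

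ROBO2 (ENSG00000185008, chr3:75906695-77649964, plus strand), an axonal SLIT receptor, had 3.18, 2.48, 3.16 and 3.31 CPM in the knockout replicates, against 0.826, 1.70, 1.04 and 1.81 CPM in the wild-type replicates. The lowest knockout library was above the highest wild-type library, and the wild-type libraries spread widely (mean 3.03 ± 0.373 CPM in the knockout and 1.34 ± 0.486 CPM in the wild-type, log2 change 1.18, SE 0.20, adjusted p = 7.26e-05). ROBO1, beside it on chromosome 3 and far more abundant, averaged 69.6 ± 5.80 CPM in the knockout and 64.2 ± 3.21 CPM in the wild-type (log2 change 0.11, SE 0.06, adjusted p = 0.103). ROBO1 passed under the replicate block (adjusted p = 0.0437), when scaled by upper quartiles (0.0110) or totals (0.0113), after the strict filter (0.0418), and without knockout replicate 1 (0.0246) or wild-type replicate 3 (0.0264). ROBO2 was 0.0329, 0.0231, 0.0303 and 0.0280 times ROBO1 per kilobase in knockout replicates 1, 2, 3 and 5, against 0.00873, 0.0177, 0.00981 and 0.0186 times in the wild-type replicates, with no overlap.

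Summed over members per kilobase, 7 of the 10 families had levels that did not overlap between the groups, where 43.4% of all genes taken alone did not overlap. Some sums largely restate their main gene. NEO1 made up 96.7% of the netrin receptor sum in the knockout and 97.7% in the wild-type. NTN4 made up 94.9% and 96.3% of the netrin sum, and NRP1 90.9% and 93.5% of the neuropilin sum. Netrin receptors came to 15.3 ± 0.636 RPKM in the knockout and 10.4 ± 0.491 RPKM in the wild-type, and ROBO receptors to 23.9 ± 0.619 and 20.6 ± 0.940 RPKM (SD, n = 4 each). Neuropilins summed to 13.98 ± 0.912 RPKM in the knockout and 18.4 ± 0.382 RPKM in the wild-type, class 3 semaphorins to 25.5 ± 2.54 and 32.8 ± 2.08 RPKM, and A-type ephrins to 16.3 ± 0.237 and 19.3 ± 0.766 RPKM. Netrins summed to 11.2 ± 0.531 RPKM in the knockout and 14.3 ± 0.828 RPKM in the wild-type. Semaphorins of the other classes summed to 76.9 ± 0.797 RPKM in the knockout and 82.9 ± 3.23 RPKM in the wild-type. Plexins summed to 69.6 ± 3.66 RPKM in the knockout and 72.6 ± 3.39 RPKM in the wild-type, and like B-type ephrins and SLITs they overlapped. By role, 8 of 17 tested receptors rose and 5 fell, while 8 of 29 tested ligands rose and 10 fell, where 23.9% of all genes were higher and 23.6% lower. The rises include UNC5A among receptors and SLIT1 and SLIT3 among ligands, which met the filter through the knockout libraries and not through the wild-type libraries. The medians were 0.22 for receptors and -0.13 for ligands on the log2 scale, and that difference was not tested.

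Other genes of the same pathways were counted from 4 lists chosen by function, with earlier results of these data known. Among all genes tested, 23.9% were higher, 23.6% lower and 47.6% called either way. The shares called were 80% of ephrin receptors, 75% of other ligands and co-receptors, 57.1% of remaining family genes and 61.4% of cytoplasmic effectors. No test of these lists was made. Of the genes called higher in them, EPHA3, RGMA, SLITRK3 and DPYSL3 passed the filter through the knockout libraries and not through the wild-type libraries. Of the ephrin receptors, 6 of 10 tested rose, 2 fell and 2 did not pass. EPHA3, EPHA7 and EPHA6, which bind A-type ephrins such as EFNA5, led with log2 changes of 5.45, 2.04 and 1.91. EPHA3 averaged 7.83 ± 0.490 CPM in the knockout and 0.177 ± 0.0469 CPM in the wild-type (SD, n = 4 each, adjusted p = 4.38e-16). EPHA7 averaged 4.29 ± 0.527 CPM in the knockout and 1.05 ± 0.168 CPM in the wild-type, and EPHA6 3.24 ± 0.444 and 0.855 ± 0.238 CPM (n = 4 each, adjusted p = 4.06e-10 and 1.43e-08). Among other ligands and co-receptors, 4 of 8 tested rose and 2 fell. RGMA, a repulsive ligand of NEO1, reached 2.77 ± 0.336 CPM in the knockout, against 0.164 ± 0.0418 CPM in the wild-type (log2 change 4.05, SE 0.22, adjusted p = 3.29e-12). FLRT2, a ligand of UNC5 receptors, rose (log2 change 0.36, adjusted p = 0.000199), and so did L1CAM, a partner of NRP1 (log2 change 0.58, adjusted p = 0.0263). The L1CAM call was lost without knockout replicate 1, 2 or 3 (adjusted p = 0.0556, 0.0535 and 0.0592) or wild-type replicate 5 (0.0794).

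The list of remaining family genes also held SLITRK genes, which only resemble SLITs in part, and 3 of its 7 tested genes rose and 1 fell. All the rises were SLITRK genes (SLITRK2, SLITRK3 and SLITRK5), and the fall was SEMA3G. PLXNA4, NTNG2 and SLITRK4 did not pass. SLITRK2 and SLITRK3, neuronal membrane proteins with SLIT-like leucine-rich repeats, rose with log2 changes of 5.36 and 2.65 (adjusted p = 3.95e-17 and 6.56e-07). SEMA3G, on chromosome 3 like SEMA3B, fell to 0.741 ± 0.141 CPM in the knockout, against 1.96 ± 0.274 CPM in the wild-type (log2 change -1.40, SE 0.18, adjusted p = 2.00e-06, neighbour median -0.43). Of the cytoplasmic effectors, 11 of 44 tested rose, 16 fell and 17 did not pass, with a median log2 change of -0.03. The shares over all genes were 23.9% higher and 23.6% lower. DPYSL3, a relative of the semaphorin mediator CRMP2, had 5.63, 6.17, 6.21 and 6.37 CPM in the knockout replicates, against 0.378, 0.2004, 0.359 and 0.153 CPM in the wild-type replicates, far apart (mean 6.09 ± 0.318 CPM in the knockout and 0.272 ± 0.113 CPM in the wild-type, log2 change 4.46, SE 0.19, adjusted p = 4.68e-14). SRGAP3, a GTPase-activating protein of the SLIT-ROBO pathway, averaged 2.48 ± 0.248 CPM in the knockout and 0.386 ± 0.0956 CPM in the wild-type (SD, n = 4 each, log2 change 2.69, SE 0.20, adjusted p = 3.06e-10).

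**Figure D5:**
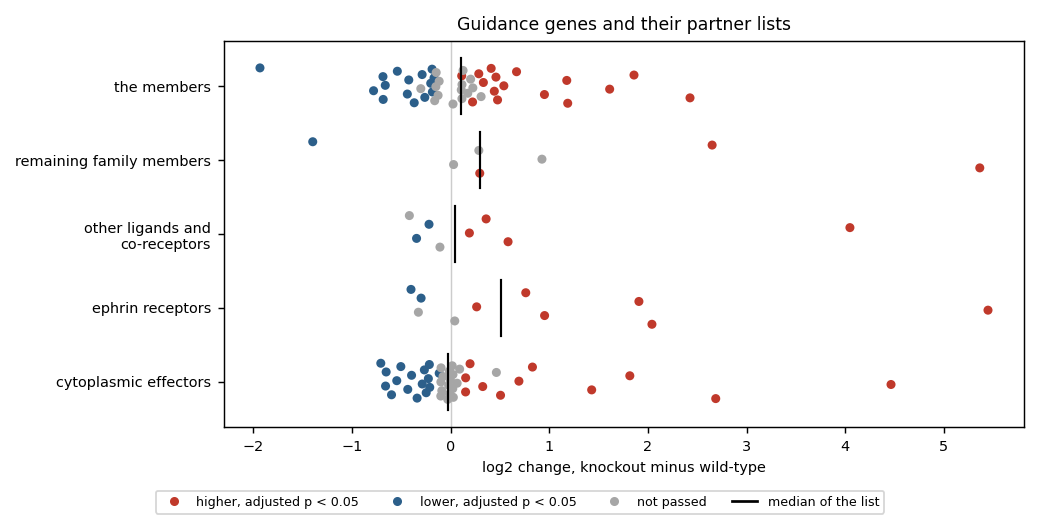
Log2 change, knockout minus wild-type, of each tested gene among the 46 members and in the 4 partner lists, with the median of each list as a black line and vertical scatter for display. EPHA3, SLITRK2, DPYSL3 and RGMA lie beyond 4 on the log2 scale, farther than any of the 46 members.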

How the data were processed

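RNA of 8 samples was sequenced as stranded, ribosome-depleted total RNA, per the labels' protocols. The authors deposited whole-number counts per Ensembl gene. STAR 2.6.0c, featureCounts, Subread 1.6.2 and hg38 are named in the submitters' processing notes; the annotation release, strand setting and treatment of shared reads are not given in the sources used here. A table of variance-stabilized values was not used. Columns were matched to samples by title. Symbols matched 60333 of 60646 identifiers, and GENCODE 29 (GRCh38) gave coordinates and exon lengths.

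The knockout was compared with the wild-type in R 4.3.3 with edgeR 4.0.16 (filterByExpr, TMM scaling, robust quasi-likelihood, group as the single term), with Benjamini-Hochberg adjustment over 19877 genes and a threshold of 0.05. SE was the log2 change divided by the root of the F statistic. CPM used TMM-scaled library sizes, and RPKM divided CPM by exon length over all transcripts. Counting intervals (95%) cover counting error only. Same-numbered samples deviated together (correlations 0.369, 0.148, 0.146 and 0.373 over 13344 genes, all above 0.1), so the replicate number was taken to pair the samples, and a blocked fit was an alternative. No replicates were alike within sampling noise. The procedure was also run on simulated data, with unpaired libraries and few changed genes. The real data differ in both, so no conclusion on error rates is drawn from that run. Members and lists were chosen with earlier results of these data known. Full values are given for members changed at least 2-fold and, in each family, for the most abundant per kilobase and the one with the smallest adjusted p; the 3 largest called changes of each partner list are named, except 1 that is not reported here. Alternatives were RLE, upper-quartile and total scaling, no and strict filters, DESeq2 1.42.0, the replicate block, each library left out, and subtraction of the neighbour median.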

Additional observations from a re-analysis of the deposited data

Results flagged for a closer look

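In 92 groups of 4 samples (46 genes in 2 genotypes), 6 had a sample set apart from the other 3 by more of the range than Dixon's 95% limit, where chance gives about 1 in 20. Wild-type replicate 3 was the lowest of its group at 4 of them. It stood at 35.9 CPM for SEMA3F, against 51.2 to 53.2 CPM in the other wild-type libraries. For SEMA6D it stood at 2.11 CPM, against 2.78 to 2.86 CPM. For PLXNB3 the values were 6.45 and 7.69 to 7.76 CPM, and for ROBO3 30.3 and 33.6 to 34.2 CPM. Among knockout libraries, replicate 1 was high for SEMA3B at 4.43 CPM, against 2.88 to 3.03 CPM in the others. Knockout replicate 3 was high for SEMA3E at 5.31 CPM, against 3.45 to 3.58 CPM. The source of these deviations was not tested.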

How the results depend on the processing

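Of the 31 called genes, 22 kept their direction and call in every setting that tested them. Of the 15 others, 5 kept their direction and stayed not passed throughout. SEMA4B and SEMA6A also never passed, but their direction changed in some settings. The strict filter (mean log2 CPM of at least 1) left 39 genes tested, and SEMA5A, SLIT1, SLIT3 and UNC5A were among the 7 removed. Members higher and lower numbered 18 and 12 with upper-quartile scaling, 18 and 11 with library totals, and 17 and 17 with no filter, against 16 and 15. With upper-quartile scaling and totals, higher calls over all genes were 61.9% and 61.2% of calls, against 50.3%, with a median shift of 0.07 and 0.06 on the log2 scale. The replicate block gave 18 and 17, adding EFNB2, ROBO1, SEMA3C and SLIT2, and changed no other call among the members. Leaving out 1 library gave 12 to 17 higher and 13 to 17 lower. Direction reversed for SEMA4B, which ran from -0.0141 to 0.0585 on the log2 scale with 1 library left out and was below 0 without knockout replicate 5 or wild-type replicate 3 or 5. It reversed for SEMA6A without wild-type replicate 2, in a range of -0.272 to 0.0159, and neither gene passed. SEMA6B stood at 0.00285 relative to its chromosomal neighbours, where it was -0.19 without that adjustment. The cause was not tested. Depth limits EFNB3, DCC, UNC5C and SEMA4A, each with at most 30 counts in a group.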

Other observations

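Among cytoplasmic effectors outside the naming rule, chosen after their values were seen, 5 of the 6 given here lay among genes that were themselves lower. TRIO, an exchange factor downstream of netrin receptors, averaged 266 ± 9.76 CPM in the knockout and 435 ± 17.7 CPM in the wild-type (n = 4 each, log2 change -0.71, SE 0.05, adjusted p = 8.99e-11), and its neighbours had a median log2 change of -0.44. RHOA, the GTPase through which plexins and ephrin receptors contract the cytoskeleton, had a log2 change of -0.55 (neighbour median -0.59) and CFL1, which severs actin, one of -0.51 (neighbour median -0.46). MICAL2, a relative of the plexin-bound oxidase MICAL1, fell by 0.65 (neighbour median -0.37), while MICAL1 rose by 0.51 (neighbour median -0.05). RHOD, a GTPase that binds plexins, rose by 1.43 although its neighbours had a median of -0.47. The part of these neighbourhoods in the values was not tested.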
